A study of Mus musculus with 6 samples.

Results

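The genes described here encode the proteasome: the barrel-shaped core particle, the regulatory particle that caps it, and alternative activators that can bind in its place. They were taken from the platform annotation as every symbol that begins with Psma, Psmb, Psmc, Psmd or Psme followed by a digit, leaving out Psmb8, Psmb9 and Psmb10, which encode the inducible catalytic subunits of the immunoproteasome. This caught 41 of 18193 named genes, read by 87 of 45037 probe sets. Of these, 39 are proteasome genes: 16 of the core particle (8 alpha and 8 beta subunits), 20 named for the regulatory particle and 3 activators. The other 2, Psmc3ip and Psme3ip1, share only the beginning of their names and encode partner proteins that are not subunits, so they are given apart. Psme2 was read only by a probe set that the annotation shares with Psme2b and is not counted. Where a gene had several probe sets, the one with the highest mean intensity over the 6 arrays was used.

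RNA came from hematopoietic stem cells (HSCs) of adult mice, sorted as lin-sca1+ckit+CD150+CD48-, a gate for long-term stem cells. Cells of PU.1 ki/ki mice, called knock-in here, were hybridised to 3 arrays and cells of wild type mice to 3, and per the labels all were adult HSCs whose RNA was extracted with Trizol. Spi1 encodes PU.1, a factor of the ETS family that directs blood development, and the series title concerns its autoregulation and stem cell proliferation. The labels give neither the altered bases of the knock-in allele nor strain, sex, or whether each array stands for 1 animal or a pool. The p-values therefore measure only the spread between these arrays, which may be technical. All values are array intensities, given in the order of replicates 1, 2 and 3, and means are ± SD with n = 3 per group. Differences are log2 of knock-in minus wild type, from limma fitted to all 45037 probe sets on log2(intensity + 1), with adjusted p by Benjamini-Hochberg over all of them.

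The proteasome degrades proteins that carry ubiquitin chains. Its core is a stack of rings, with outer rings of alpha subunits that gate the entrance and inner rings of beta subunits, of which Psmb5, Psmb6 and Psmb7 hold the active sites. The regulatory particle recognises ubiquitin, removes it and unfolds the substrate with a ring of ATPases encoded by the Psmc genes. Blood stem cells keep protein synthesis low, and their maintenance is known to depend on protein quality control.

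Bright probe sets were often dim on 2 of the wild type arrays, and both enter the limma fit of all 6 arrays. Where the other 5 arrays had a median of 512 or more, 11.5% of probe sets on wild type replicate 2 and 11.3% on replicate 3 read at least 4-fold less. On wild type replicate 1 this was 1.12%, and on the knock-in arrays 0.119 to 0.219%. As a sign of RNA quality, Gapdh probe sets at the 3' end were 6.11 times as bright as those at the 5' end for wild type replicate 2 and 6.68 times for replicate 3, against 2.98 to 4.75 times elsewhere. Log2 values of 2 arrays correlated at 0.940 to 0.951 within the knock-in group and at 0.831 to 0.858 within wild type. The part of these differences in the results was not tested. Spi1 read 170, 212 and 161 in knock-in and 158, 195 and 199 in wild type HSCs, and the groups overlapped (-0.03, limma adjusted p = 0.992).

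Marker genes were read as whole lists, by the summed intensity of their measured genes. The 7 HSC genes, among them Kit, Procr, Hlf and Hoxb5, summed to 5642 to 7201 on the knock-in and 4031 to 6800 on the wild type arrays. Of these, Slamf1, which encodes the CD150 of the gate, read 696, 1525 and 170 against 440, 54 and 42, and Cd48, selected against by the gate, was measured at 75 to 704. Sums of the 7 myeloid markers were 15281 to 19445 in knock-in and 18286 to 24428 in wild type HSCs. Over all arrays the peroxidase gene Mpo read 3027 to 6717, Elane 739 to 3640 and Csf1r 88 to 648. Lyz2 read 4169 to 5457, S100a9 3821 to 6539 and S100a8 2284 to 4133, the last lower in knock-in without overlap (-0.45). The integrin gene Itgam read 11 to 19, near the table's minimum of 10. The 4 B cell genes summed to 283 to 325 and 176 to 753, with Cd79a and Ms4a1 below 50 on all arrays. Cd79a was lower in knock-in without overlap (-0.44). Pax5 read 22 to 63 and Cd79b 102 to 649. The 5 T and NK cell genes summed to 136 to 156 and 211 to 267, with Cd3g and Ncr1 below 50 on all arrays. Cd3d read 11 to 54, Cd8a 28 to 73 and Cd3e 32 to 150, the last lower in knock-in without overlap (-1.25). Sums of the 4 erythroid genes were 354 to 647 and 220 to 949. Within that list, Klf1 read 118, 123 and 159 in knock-in and 42, 21 and 11 in wild type HSCs, higher without overlap (2.57, limma adjusted p = 0.463). Hba-a1 was lower without overlap (-0.69). The 4 megakaryocyte genes summed to 989 to 2360 and 629 to 1578, and the 5 macrophage genes to 327 to 985 and 145 to 180. Of the latter, C1qb read 567, 119 and 73 against 10, 10 and 10, the table's minimum (3.96, limma adjusted p = 0.463). C1qc read 226, 54 and 41 against 13, 35 and 29 (1.71), and neither overlapped. The T and NK cell and macrophage sums did not overlap between groups, and the part of these cells in the results was not tested. In such bulk samples, fewer cells of a type and less RNA per cell cannot be told apart.

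In no proteasome gene did the groups differ beyond the spread between arrays once all probe sets were accounted for. The median difference was 0.07 for the 16 core genes, 0.04 for the 20 regulatory particle genes and 0.06 for all 39. It was 0.002 over all probe sets and 0.12 over the 1575 other genes whose mean level lay between the quartiles of the 39. Of the 39 genes, 24 read higher and 15 lower in knock-in, and 26 differed by less than 0.5. No member passed in limma: adjusted p was 0.552 to 1, and 0 of 45037 probe sets had an adjusted p under 0.05 (0%). At an unadjusted p under 0.05 there was 1 of the 39 genes (2.56%), Psma7, where 8.28% of all probe sets and 7.62% of genes of like level had such a p. Non-overlapping groups were found in 1 of the 39, again Psma7, against 12.1% of all probe sets and 13.3% of genes of like level. A p that misses the threshold does not show that levels were equal. The 95% intervals of the differences ranged in width from that of Psma6, -0.30 to 0.25, to that of Psma2, -2.07 to 4.08.

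The balance of signs depended on scaling and on single arrays. Centring each array on its median shifted all probe sets to a median difference of -0.11, and in that fit 18 of the 39 were higher and 21 lower, and a further quantile normalization gave the same split. Without wild type replicate 1, the unadjusted p was under 0.05 for 9 of the 39 genes (23.1%) and for 15.9% of all probe sets. Without wild type replicate 3 it was 4 genes (9.25% of all probe sets) and without knock-in replicate 1 it was 0 (6.10%). When single arrays were left out, 20 of the 39 genes kept 1 sign in all 6 fits and 19 did not.

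**Figure D1:**
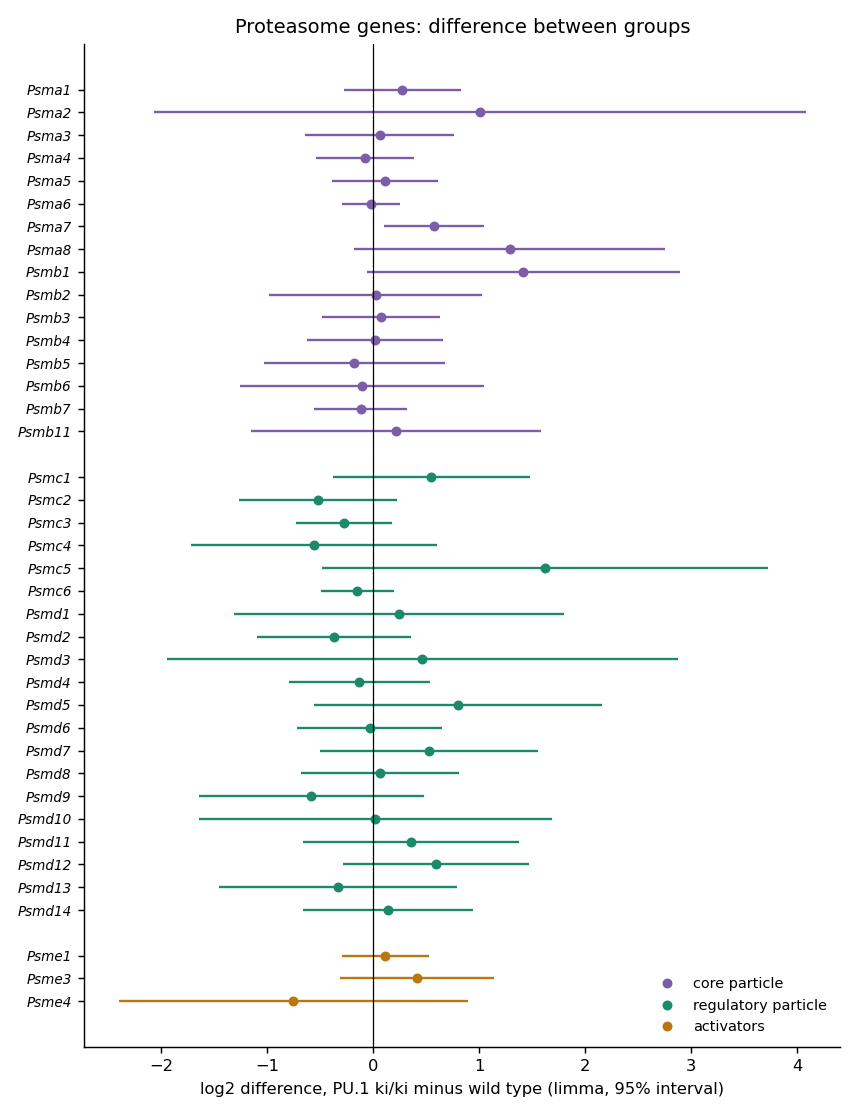
Log2 difference between knock-in and wild type HSCs (x axis) for each of 39 proteasome genes (y axis), with points for the limma estimate and bars for its 95% interval from 3 arrays per group. The bar of Psma7, 0.11 to 1.05, lies wholly above 0, and the other 38 bars cross it.

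Promoter sequences of the genes with the lowest p and of those with differences nearest to 0 show which short motifs stand near their start sites. They are from RefSeq (GRCm38.p6, strand of the gene), from 250 bases before to 50 after the start, and 32 of the 39 genes had at least 1 such entry. Capitals mark 3 motifs searched on both strands: TGACNNNGC, the core of the antioxidant response element through which Nfe2l1 is known to activate proteasome genes, the CCAAT box, and GAGGAAGT, a form of the ETS site that PU.1 binds. No marked motif overlaps another in these sequences. Psma7, Psmc5, Psmc2 and Psmd12 come first, as those with the lowest p among genes with an entry, and Psmb4 and Psmd10 follow with differences of 0.02 each.
Psma7, chr2:180042415-180042714, - strand: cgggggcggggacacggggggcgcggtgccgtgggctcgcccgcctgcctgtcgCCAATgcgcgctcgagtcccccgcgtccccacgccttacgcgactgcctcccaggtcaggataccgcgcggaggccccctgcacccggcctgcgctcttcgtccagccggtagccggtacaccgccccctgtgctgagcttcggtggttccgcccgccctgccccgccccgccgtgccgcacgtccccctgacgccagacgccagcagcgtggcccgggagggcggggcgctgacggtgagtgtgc
Psmc5, chr11:106255935-106256234, + strand: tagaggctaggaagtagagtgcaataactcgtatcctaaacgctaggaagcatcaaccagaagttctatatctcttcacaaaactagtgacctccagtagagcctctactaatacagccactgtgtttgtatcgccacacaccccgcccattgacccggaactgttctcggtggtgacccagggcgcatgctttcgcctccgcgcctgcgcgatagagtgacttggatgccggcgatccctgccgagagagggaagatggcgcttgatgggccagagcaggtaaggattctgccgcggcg
Psmc2, chr5:21785025-21785324, + strand: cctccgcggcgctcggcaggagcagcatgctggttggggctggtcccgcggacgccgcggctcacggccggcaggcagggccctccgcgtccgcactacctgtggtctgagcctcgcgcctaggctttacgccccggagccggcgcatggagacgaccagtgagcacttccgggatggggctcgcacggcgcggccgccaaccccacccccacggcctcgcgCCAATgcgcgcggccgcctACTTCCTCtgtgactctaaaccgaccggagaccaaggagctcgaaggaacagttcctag
Psmd12, chr11:107479278-107479577, + strand: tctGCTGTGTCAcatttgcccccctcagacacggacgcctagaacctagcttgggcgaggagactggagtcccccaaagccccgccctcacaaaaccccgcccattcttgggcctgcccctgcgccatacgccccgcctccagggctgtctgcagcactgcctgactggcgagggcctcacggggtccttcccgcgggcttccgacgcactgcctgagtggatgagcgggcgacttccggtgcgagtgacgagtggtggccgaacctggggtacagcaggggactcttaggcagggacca
Psmb4, chr3:94886909-94887208, - strand: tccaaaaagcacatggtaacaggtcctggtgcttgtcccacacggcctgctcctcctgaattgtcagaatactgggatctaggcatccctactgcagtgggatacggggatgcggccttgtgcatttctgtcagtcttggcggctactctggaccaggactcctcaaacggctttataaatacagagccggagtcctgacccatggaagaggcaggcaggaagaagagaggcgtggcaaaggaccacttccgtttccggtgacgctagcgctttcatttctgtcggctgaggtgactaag
Psmd10, chrX:140956662-140956961, - strand: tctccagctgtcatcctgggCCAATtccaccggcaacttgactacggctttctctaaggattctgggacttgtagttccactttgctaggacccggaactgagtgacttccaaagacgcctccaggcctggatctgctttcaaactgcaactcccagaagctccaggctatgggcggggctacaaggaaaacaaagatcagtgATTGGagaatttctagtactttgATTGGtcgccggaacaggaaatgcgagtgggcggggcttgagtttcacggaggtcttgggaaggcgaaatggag

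Among these promoters, that of Psmd12 holds the antioxidant response element core, starting 247 bases before the start site. That of Psma7 holds 1 CCAAT box and that of Psmc2 holds 1 CCAAT box and 1 ETS site. That of Psmd10 holds 3 CCAAT boxes, and those of Psmc5 and Psmb4 hold none of the 3 motifs. Over the 34 promoter entries of the 32 genes, 6 hold TGACNNNGC (17.6%), in Psmb5, Psmb6, Psmc6, Psmd9, Psmd12 and Psme4, against 12.4% of all 32851 promoters. CCAAT was found in 13 entries (38.2%) against 37.4% of all, and GAGGAAGT in 3 (8.82%), of Psma6, Psmc1 and Psmc2, against 3.20%. A match is a string of letters and not a measured binding site. Of the 6 genes with TGACNNNGC, Psmd12 read higher in knock-in (0.59) and 5 read lower, from -0.11 for Psmb6 to -0.75 for Psme4, and the groups overlapped in all 6.

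The catalytic beta subunits of the core overlapped between the groups. Psmb5, which encodes the chymotrypsin-like active site and is the main target of bortezomib, read 410, 813 and 823 in knock-in and 833, 780 and 613 in wild type HSCs. knock-in replicate 1 was the lowest array and the other 5 overlapped, so the means of 682 ± 236 and 742 ± 115 differed by -0.18 ± 0.33 (SE, 95% interval -1.03 to 0.68, limma adjusted p = 0.898). Psmb6, the caspase-like site, read 1472, 1678 and 1416 against 2211, 2375 and 831. Here 2 wild type arrays were above and 1 below every knock-in array, and the difference was -0.11 ± 0.45 (SE, limma adjusted p = 0.970). Psmb7, the trypsin-like site, read 1753, 1700 and 1308 against 1889, 1587 and 1655, which gave -0.12 ± 0.17 (SE, 95% interval -0.55 to 0.32, limma adjusted p = 0.860). All 3 estimates were below 0 and each group overlapped the other. Their sign changed when single arrays were left out, without knock-in replicate 1 for Psmb5 (0.15), without wild type replicate 1 (0.11) or 2 (0.16) for Psmb6, and without knock-in replicate 3 for Psmb7 (0.02).

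Of the non-catalytic beta subunits, Psmb1 had the highest difference of the beta list. It read 1323, 1435 and 1715 in knock-in and 1327, 367 and 349 in wild type HSCs. Wild type replicate 1 lay within the knock-in range while replicates 2 and 3 were low, and the difference was 1.42 ± 0.58 (SE, 95% interval -0.06 to 2.89, limma adjusted p = 0.608). Against wild type replicate 1 alone it was 0.16. A second probe set of Psmb1 read 182, 230 and 571 against 323, 41 and 230, low on wild type replicate 2 and not on replicate 3. Psmb2, Psmb3 and Psmb4 differed by 0.02, 0.07 and 0.02. The remaining beta gene, Psmb11, encodes a subunit used in the cortical epithelium of the thymus, and it read 12 to 44 on all arrays, close to the minimum.

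The alpha subunits held the only gene whose groups did not overlap. Psma7, an outer-ring subunit, read 3145, 2271 and 2262 in knock-in and 1808, 1547 and 1740 in wild type HSCs. Every knock-in array was above every wild type array, with means of 2559 ± 507 and 1698 ± 135, a 1.49-fold ratio of geometric means. The difference was 0.58 ± 0.18 (SE, 95% interval 0.11 to 1.05) with a limma adjusted p of 0.552. It stayed between 0.42 and 0.66 when single arrays were left out and was 0.48 against wild type replicate 1 alone. The second probe set of Psma7 read 2454, 2367 and 1425 against 1034, 1833 and 2538, with overlap and a difference of 0.26. The separation on the first probe set was therefore not seen on the second.

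Psma6 varied least over the 6 arrays among the 39 genes, an observation made after the values were seen. It read 4614, 4355 and 4376 in knock-in and 4639, 4429 and 4481 in wild type HSCs, so that the brightest array was 1.07 times the dimmest and the difference was -0.02 ± 0.11 (SE, 95% interval -0.30 to 0.25). A dimmer probe set of the same gene was less even, with 2977, 3655 and 2564 against 2160, 3169 and 3166. Psma4, with the lowest difference of the alpha list, read 1103, 1181 and 1038 against 940, 1248 and 1355, with the knock-in values inside the wild type range (-0.08 ± 0.18 SE). Psma1, Psma3 and Psma5 differed by 0.28, 0.06 and 0.11, and their groups overlapped on the brightest probe set. A dim probe set of Psma1 was singled out after its values were seen. It read 128, 41 and 79 against 19, 30 and 15, without overlap (1.82, limma adjusted p = 0.509).

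Psma8 and Psma2, the latter singled out after its values were seen, had larger estimates that changed with the wild type arrays used. Psma8, an alpha subunit known for its part in male germ cells, read 253, 161 and 342 in knock-in and 191, 50 and 98 in wild type HSCs. The groups overlapped through wild type replicate 1, and the difference of 1.29 ± 0.57 (SE, limma adjusted p = 0.629) was 0.33 against that array alone. When single arrays were left out, the difference was 0.81 to 1.77. Psma2 read 3431, 2948 and 4255 against 5062, 272 and 3821. Wild type replicate 2 was 14.0-fold below the median other array, and the other wild type arrays were within or above the knock-in range. The difference of 1.01 ± 1.20 (SE) became -0.33 without that array, and no second probe set of Psma2 was measured.

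**Figure D2:**
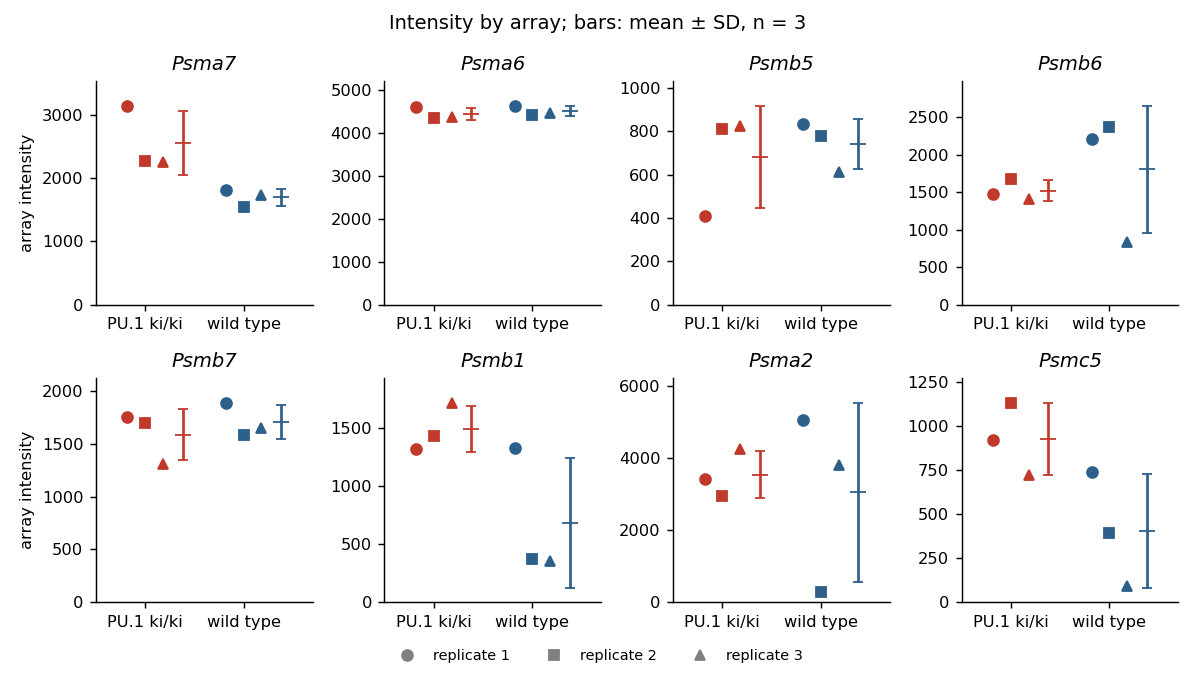
Intensity (y axis, from 0) of 8 proteasome genes on each array, with circles, squares and triangles for replicates 1, 2 and 3 and bars for mean ± SD (n = 3). Psma7 is separated between knock-in and wild type, Psma6 is nearly level, and Psmb1, Psma2 and Psmc5 are low on wild type replicates 2 or 3.

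The ATPase ring of the regulatory particle showed no shared direction. Of its 6 genes, 2 read higher and 4 lower in knock-in (median -0.21). In limma 0 of the 6 had an unadjusted p under 0.05, where 8.28% of all probe sets did. In all 6 the spread of log2 values was wider among the wild type arrays. For Psmc2, Psmc4 and Psmc6, lower on the brightest probe set, another with a mean intensity of at least 100 differed by 0.93, 0.82 and 0.31. Psmc5 read 923, 1131 and 724 in knock-in and 737, 391 and 89 in wild type HSCs. The wild type values descended far below the knock-in range on replicate 3, which read 8.28-fold less than the median other array. The difference was 1.62 ± 0.82 (SE, 95% interval -0.48 to 3.72, limma adjusted p = 0.655), the highest of the 39, and it was 0.76 without wild type replicate 3 and 0.31 against replicate 1 alone. Psmc4, the lowest of the ring, read 583, 764 and 517 against 1654, 541 and 822, with only wild type replicate 1 far from the rest. Its difference was -0.56 ± 0.45 (SE, limma adjusted p = 0.745), and -0.12 without that array.

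The other ATPase genes, described after their values were seen, had differences between -0.52 and 0.55. Psmc3 read 1386, 1347 and 1336 in knock-in and 1318, 1895 and 1770 in wild type HSCs. The knock-in arrays were close together with the wild type arrays on both sides, and the difference was -0.28 ± 0.18 (SE, limma adjusted p = 0.697). Psmc6 read 1104, 1176 and 1289 against 1218, 1446 and 1304 (-0.15 ± 0.13 SE, 95% interval -0.50 to 0.19). Psmc1 read 2167, 2295 and 2230 against 2504, 1436 and 985 (0.55), with the wild type arrays on both sides. Psmc2 read 643, 901 and 610 against 932, 1422 and 788 (-0.52 ± 0.29 SE, limma adjusted p = 0.671), higher on wild type replicates 1 and 2 than on any knock-in array.

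The non-ATPase subunits bind, deubiquitinate and position the substrate. Of 11 genes, 7 read higher and 4 lower in knock-in, with a median of 0.14. In limma 0 of the 11 had an unadjusted p under 0.05, where 8.28% of all probe sets did. Psmd12, a scaffold subunit of the lid, had the highest difference and read 1022, 918 and 879 in knock-in against 572, 998 and 421 in wild type HSCs. Wild type replicate 2 lay within the knock-in range, and the difference was 0.59 ± 0.34 (SE, 95% interval -0.29 to 1.47, limma adjusted p = 0.676). Psmd2, a scaffold of the base, had the lowest difference and read 585, 977 and 824 against 1121, 1200 and 761 (-0.37 ± 0.28 SE, limma adjusted p = 0.736), with overlap. Psmd14, the deubiquitinase of the lid, read 2640, 2519 and 1587 against 2260, 1431 and 2441 (0.14), and the ubiquitin receptor Psmd4 read 986, 1118 and 705 against 934, 850 and 1289 (-0.13). For both the arrays of the groups were mixed in order.

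Of further lid and base genes, Psmd1, Psmd3 and Psmd7 differed between wild type arrays more than between groups. Psmd3, singled out after its values were seen like the other genes of this paragraph, read 153, 157 and 181 in knock-in and 511, 60 and 53 in wild type HSCs. The knock-in arrays were close together with wild type arrays above and below them, so that the difference was 0.46 in the fit of all arrays, 1.52 without wild type replicate 1 and -1.64 against that array alone. Psmd7 read 1462, 1608 and 1572 against 805, 783 and 1963 (0.53), and Psmd1 read 1426, 762 and 556 against 714, 1371 and 370 (0.25). Psmd6, Psmd8, Psmd11 and Psmd13 differed by -0.03, 0.06, 0.36 and -0.33, all with overlap on the brightest probe set. Psmd6 and Psmd13 spread more among knock-in arrays (SD of log2 values 0.47 and 0.79) than among wild type arrays (0.13 and 0.25). A dimmer probe set of Psmd13 read 223, 219 and 225 against 164, 196 and 171, without overlap (0.33, limma adjusted p = 0.596).

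Psmd5, Psmd9 and Psmd10 encode chaperones that assemble the ATPase ring and leave the finished particle. Psmd5 read 836, 1173 and 761 in knock-in and 934, 605 and 251 in wild type HSCs, with the lowest array in wild type replicate 3, and differed by 0.80 ± 0.53 (SE, limma adjusted p = 0.705) and by 0.27 without that array. Psmd9 read 109, 308 and 224 against 253, 310 and 325 (-0.58 ± 0.42 SE, limma adjusted p = 0.719), with the low value in knock-in replicate 1. Without that array its difference was -0.16. Psmd10, which is also known as gankyrin, read 377, 486 and 194 against 341, 152 and 656 (0.02).

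The activators cap the core in place of the regulatory particle and open its gate without ATP. Psme1, an interferon-inducible ring subunit, read 3684, 4060 and 3600 in knock-in and 3263, 4144 and 3133 in wild type HSCs, with a difference of 0.12 ± 0.16 (SE, 95% interval -0.29 to 0.52). Psme3, of the nuclear activator, read 4723, 6657 and 6409 against 6245, 3872 and 3540. Wild type replicate 1 was within the knock-in range and the other wild type arrays below it (0.41 ± 0.28 SE, limma adjusted p = 0.713), and against replicate 1 alone the difference was -0.09. Psme4, a large single-chain activator, read 287, 320 and 196 against 1040, 201 and 414 (-0.75 ± 0.64 SE, limma adjusted p = 0.760), which was -0.14 without wild type replicate 1. The probe set shared by Psme2 and Psme2b read 683, 1287 and 561 against 332, 425 and 338, without overlap. Its difference of 1.12 ± 0.35 (SE, limma adjusted p = 0.549) cannot be assigned to either gene.

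By array, low values of proteasome genes lay mainly on wild type replicates 2 and 3. Relative to each gene's median over the knock-in arrays, the median level of the 39 genes was -0.07, -0.20 and -0.04 on wild type replicates 1, 2 and 3. More than 1 log2 unit below that reference were 0, 7 and 9 of the 39 genes on these arrays, or 0, 17.9 and 23.1%. Of the 1575 genes of like level these shares were 6.41, 18.6 and 19.0%. Among the knock-in arrays they were 2, 0 and 1 of the 39 genes. For 26 of the 39 genes (66.7%) the log2 values spread more among wild type than among knock-in arrays, as they did for 76.5% of genes of like level.

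**Figure D3:**
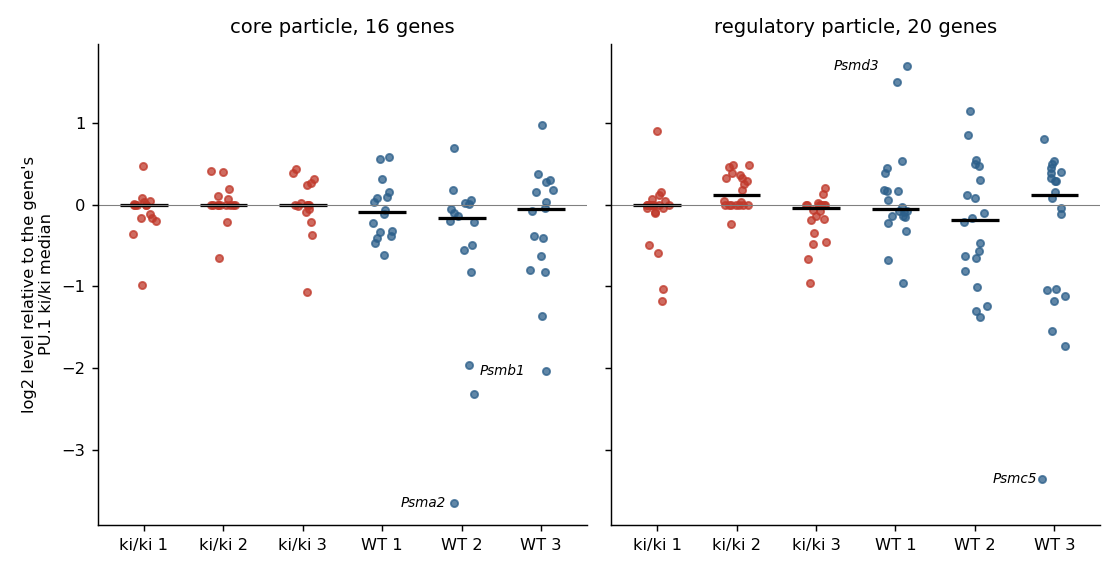
Log2 level relative to the gene's median over the knock-in arrays (y axis) of the core and regulatory particle genes on each of the 6 arrays (x axis), with 1 point per gene and bars for the median. Medians on the wild type arrays lie between -0.19 and 0.12, and the low points on wild type replicates 2 and 3 include Psma2, Psmb1 and Psmc5.

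Probe sets of the same gene often differed in which arrays were low. Of the 39 genes, 21 had more than 1 probe set, and 16 had at least 2 with a mean intensity of 100 or more. In 8 of these 16 the probe sets gave differences of both signs. In 4 cases a bright probe set of a proteasome gene read at least 4-fold less than on the median other array. These were 3 of 40 bright probe sets on wild type replicate 2 (7.5%) and 1 of 40 on replicate 3 (2.5%). Of all bright probe sets the shares on these arrays were 11.5 and 11.3%. In 2 of the 4 cases the gene had a further bright probe set, and it was not 4-fold lower on that array. For Psmc2 the low probe set read 97 on wild type replicate 2, where the brightest read 1422. For Psmc4 the second probe set read 118 on that array and the brightest 541. The second probe set of Psmd6 read 449, 316 and 440 in knock-in and 232, 48 and 10 in wild type HSCs, without overlap (2.99), while the brightest read 498, 943 and 751 against 713, 668 and 795 (-0.03). The second probe set of Psmb3 read 338, 471 and 728 against 483, 190 and 42, with overlap (1.62), and the brightest differed by 0.07. The second probe set of Psme3 read 887, 1351 and 1687 against 870, 383 and 486 (1.21), without overlap, where the brightest overlapped. A dim probe set of Psmd7 was separated the other way, with 57, 52 and 35 against 156, 126 and 94 (-1.37, limma adjusted p = 0.463). These probe sets were singled out after their values were seen. Of all 84 probe sets of the 39 genes, 9 (10.7%) did not overlap, 7 higher and 2 lower in knock-in, against 12.1% of all probe sets. With the mean over all probe sets of a gene, the median difference of the core genes was 0.34 in place of 0.07.

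**Figure D4:**
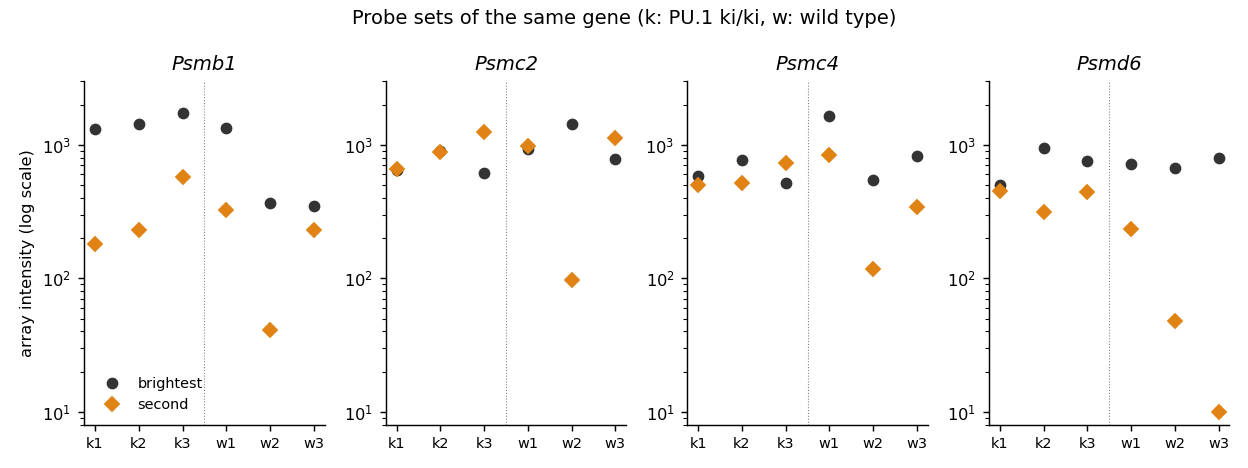
Intensity (y axis, log scale) of the probe sets with a mean of at least 100 for 4 proteasome genes on the 6 arrays (x axis), circles for the brightest and diamonds for the second. For Psmc2, Psmc4 and Psmd6 the second probe set is at 97, 118 and 48 on wild type replicate 2 and the brightest at 1422, 541 and 668.

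The immunoproteasome and assembly genes, which the selection left out, also overlapped between the groups on their brightest probe sets. The inducible catalytic genes Psmb8, Psmb9 and Psmb10 differed by -0.05, 0.10 and -0.08. Of these, 0 of 3 had an unadjusted p under 0.05 in limma, where 8.28% of all probe sets did. Psmb8 read 2212, 3447 and 2682 in knock-in and 2086, 2668 and 4106 in wild type HSCs, and Psmb9 read 1697, 2177 and 1648 against 1273, 1872 and 2054. The core assembly chaperones Psmg1, Psmg2, Psmg3, Psmg4 and Pomp differed by -0.17, 0.52, 0.04, 0.62 and -0.01, and 0 of 5 had such a p. Pomp, the maturation factor that the new core digests first, read 2196, 1320 and 1431 against 1387, 2129 and 1431, with both group means at 1649.

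On their brightest probe sets, proteins that bind the proteasome and the factors that control it gave 1 gene without overlap among 15. Of all probe sets, 12.1% did not overlap. Of 9 measured bound proteins 8 read higher and 1 lower in knock-in (median 0.19). Ubqln4, a shuttle that carries ubiquitinated proteins to the proteasome, read 1311, 1239 and 1752 against 996, 659 and 678, which gave 0.89 ± 0.24 (SE, 95% interval 0.27 to 1.51, limma adjusted p = 0.508). All knock-in arrays were above all wild type arrays, and the difference was 0.74 to 1.08 with any 1 array left out. The second probe set of Ubqln4 read 71, 142 and 110 against 103, 90 and 376, with the opposite sign (-0.55). The deubiquitinases Usp14 and Uchl5 and the inhibitor Psmf1 differed by 0.18, 0.57 and 0.40, with overlap, and Uchl5 by 0.05 without wild type replicate 2. Sem1, a small lid subunit that the naming rule does not catch, read 4637, 3802 and 4650 against 4220, 1799 and 1663 (0.90), with wild type replicate 1 inside the knock-in range, and its second probe set differed by 0.05.

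Nfe2l1, the transcription factor that restores proteasome gene expression when the proteasome is inhibited, read 583, 712 and 405 in knock-in and 421, 353 and 198 in wild type HSCs. Only knock-in replicate 3 and wild type replicate 1 overlapped (0.84 ± 0.37 SE, 95% interval -0.12 to 1.79, limma adjusted p = 0.632). The related Nfe2l2 read 741, 601 and 1055 against 982, 645 and 330 (0.39 ± 0.47 SE) and overlapped too on its brightest probe set. Dim probe sets of Nfe2l2 and Keap1, singled out after their values were seen, did not overlap. That of Nfe2l2 read 23, 26 and 24 against 32, 49 and 72 (-0.96, limma adjusted p = 0.558). That of Keap1 read 49, 66 and 35 against 86, 99 and 69 (-0.78, limma adjusted p = 0.594), and its brightest differed by 1.15, with overlap. On the brightest probe sets, 3 of the 6 measured genes of transcriptional control read higher and 3 lower. Of the 6, 0 had an unadjusted p under 0.05 in limma, where 8.28% of all probe sets did. Of 7 genes of the segregase that unfolds ubiquitinated proteins 5 read higher and 2 lower (median 0.26), and 0 had such a p. Vcp, its ATPase, which extracts proteins and hands them to the proteasome, read 3599, 4393 and 3784 against 4473, 1835 and 4807 (0.20). It was low only on wild type replicate 2, and the difference was -0.25 without that array. Its adaptor Ubxn1, singled out after its values were seen, read 3248, 4236 and 3358 against 1664, 527 and 3189, without overlap (1.35 ± 0.69 SE, limma adjusted p = 0.657), and differed by 0.64 without wild type replicate 2. Of 6 listed genes of ubiquitin supply 1 was measured, the activating enzyme gene Uba6, which differed by 0.75, and by 0.14 without wild type replicate 2. Uba6 had 5 probe sets. A dimmer one, singled out after its values were seen, read 402, 1008 and 766 against 361, 339 and 207, without overlap (1.20, limma adjusted p = 0.585). The remaining ones overlapped, with differences of 0.37 to 0.82.

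The 2 genes caught by name only also overlapped between groups. Psmc3ip, a factor of meiotic recombination, read 812, 531 and 382 in knock-in and 1478, 1049 and 317 in wild type HSCs (-0.53). Psme3ip1, which binds the nuclear activator, read 509, 629 and 677 against 578, 60 and 934 (0.91), with only wild type replicate 2 low.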

How the data were processed

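RNA of sorted HSCs was hybridised to 6 Affymetrix single-colour arrays, 3 of wild type and 3 of knock-in cells. Per the submitters' processing notes the values came from RMA, whose version is not given in the sources used here. The deposited table holds linear intensity in whole numbers with a minimum of 10, and how the authors set scale and minimum is not given in the sources used here. The labels' description field speaks of embryos, against every other field, and was set aside.

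Of the probe sets, 64 controls were left out, and 34945 had 1 gene symbol, 932 several and 9160 none listed. Values were fitted as log2(intensity + 1) in limma 3.58.1 under R 4.3.3 (functions lmFit, then eBayes) over all 45037 probe sets, with Benjamini-Hochberg adjustment. The script was tested on simulated data. The members, gene lists and rule for named genes were chosen with earlier results of these data known. Named by rule were proteasome genes with an unadjusted p under 0.05, no overlap, or the highest or lowest difference of their list, the catalytic subunits, a fixed panel of companion genes with any other companion whose unadjusted p was under 0.05, and Spi1. Other genes named were singled out after their values were seen. Adrm1 was not analysed here. The number of arrays limits the precision. The alternatives covered normalization, pseudocount, a filter on dim probe sets, the variance prior, array weights, a replicate block, probe set choice and left-out arrays.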

Additional observations from a re-analysis of the deposited data

How the results depend on the processing

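No proteasome gene and no other probe set had an adjusted p under 0.05 in limma in any of the 16 alternatives. The number of the 41 genes with an unadjusted p under 0.05, 1 in the report, was 2 with a further quantile normalization (8.44% of all probe sets), with a trended and robust variance prior (7.03%) or with the mean of all probe sets (9.09%), 0 with centred arrays (8.27%), 3 with the replicate block (7.48%), 6 with wild type replicate 1 as the only wild type array (12.4%), and 0 to 9 without single arrays (5.63 to 15.9%). Genes without overlap numbered 3 with quantile normalization (12.6% of all probe sets), centring (19.5%) or the mean of all probe sets (14.2%), 23 with only wild type replicate 1 (51.5%), and 4 to 13 without single arrays (18.2 to 30.3%, the highest of both without wild type replicate 1). The median of the core genes was -0.027 with quantile normalization, -0.041 with centring, 0.34 with the mean of all probe sets and -0.011 to 0.20 without single arrays, and that of the regulatory genes -0.11 with quantile normalization and -0.10 to 0.23 without single arrays. The cause was not tested.

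Of 31 single genes, 21 changed sign in at least 1 alternative and 10 in none. Quantile normalization gave -0.14 for Psmg3, centring -0.0023 for Psmb9 and -0.068 for Psmg3, and array weights 0.040 for Psmb8, 0.0088 for Spi1 and -0.0014 for Usp14. With only wild type replicate 1 the differences were Nfe2l2 -0.34, Pomp 0.21, Psma4 0.23, Psmb10 0.37, Psmb8 0.39, Psmd5 -0.042, Psme3 -0.091, Psmg2 -0.90, Psmg3 -0.25, Spi1 0.18, Uchl5 -0.17, Usp14 -0.85 and Vcp -0.19. With the mean of all probe sets they were Nfe2l2 -0.29, Psmb8 0.33, Psmc4 0.13, Psmf1 -0.0063, Psmg3 -0.24, Psmg4 -0.075 and Uchl5 -0.057. Without single arrays the ranges that crossed 0 were Psma4 -0.23 to 0.030, Psmb5 -0.35 to 0.15, Psmb6 -0.59 to 0.16, Psmb7 -0.19 to 0.017, Psmb8 -0.28 to 0.21, Psmb9 -0.10 to 0.24, Psmb10 -0.30 to 0.071, Psmg1 -0.59 to 0.13, Psmg2 -0.076 to 1.22, Psmg3 -0.19 to 0.37, Pomp -0.23 to 0.19, Usp14 -0.34 to 0.70, Psmf1 -0.017 to 1.10, Nfe2l2 -0.034 to 0.75, Vcp -0.25 to 0.45 and Spi1 -0.14 to 0.052.

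No sign of pairing by replicate number was seen. Deviations of same-numbered arrays correlated at -0.0159, 0.0207 and -0.0168, those of other pairs at -0.0147 to 0.0291, and the replicate block changed no adjusted call. The correlations cannot exclude a pairing, because the wild type arrays also differed in how often bright probe sets were dim. Leaving out dim probe sets kept 38 of the 39 genes, without Psmb11.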
